A study of Mus musculus with 15 samples.

Results

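The 10 genes described here are targets of the transcription factor p53, followed in mouse macrophages with and without STAT5: Cdkn1a, Phlda3, Ccng1, Aifm2, Mdm2, Bax, Trp53inp1, Zmat3, Eda2r and Plk2. They were taken by gene symbol from a table of 55385 genes, of which 13005 passed the filter on low counts and were tested. Of the 10 genes, 9 passed that filter and Eda2r did not. The 10 genes were chosen with earlier results from these same counts known, and which values they were chosen on is not recorded, so their levels and fold changes are given as a description, without p-values. The other gene lists were also drawn up with earlier results known. Adjusted p-values printed for genes of those lists describe these data and are not independent support. Where a member is said to have been called, its adjusted p was under 0.01 in edgeR's quasi-likelihood test over all 13005 genes, and that count is set beside the share of all genes called. Where the genotypes are said to be apart or not to overlap within a treatment, the share of all genes that were so was not counted. The same holds for ratios within a mouse, and with so few mice no difference is read from a lack of overlap.

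Bone marrow-derived macrophages of 6-week-old BALB/c mice were cultured for 2 h in serum-free DMEM, in DMEM with 20 ng/mL recombinant mouse GM-CSF (rmGM-CSF), or in 4T1 CM, the medium conditioned by the 4T1 mouse mammary tumor line. The mice were 2 STAT5 fl/fl animals (mice 112 and 113) and 3 STAT5 cKO animals (mice 114, 115 and 116), and each gave 1 library per treatment, 15 in all. Every mouse carried floxed Stat5 alleles. The STAT5 cKO mice also carried Csf1r-iCre, a Cre recombinase driven by the promoter of the macrophage colony-stimulating factor receptor gene and active in myeloid cells, and since the study's methods name Cre for these mice alone, the loss of STAT5 and the presence of Cre cannot be told apart. Another STAT5 fl/fl replicate had been removed by quality control and is not analysed here.

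The libraries held between 16016736 and 22883108 counts. Stat5a and Stat5b, the floxed genes, had at most 3 and 4 counts in any STAT5 cKO library, against 637 to 918 and 977 to 1654 counts in the STAT5 fl/fl libraries. All 8 macrophage markers passed the filter, among them Csf1r at 3825 to 4204 normalized CPM (CPM being counts scaled to a common library total), and their summed level was 24653 to 29866 in STAT5 fl/fl and 31146 to 46645 in STAT5 cKO libraries, where Lyz2 was higher. The 6 markers of T and B cells summed to at most 0.319, the 8 of neutrophils and their precursors to at most 2.69, and the 6 epithelial markers to at most 4.34 normalized CPM. The epithelial sum, nearly all of it Cdh1 under the stimuli in STAT5 fl/fl, differed by treatment and genotype. It was at most 0.137 with DMEM. With rmGM-CSF it was 1.18 to 1.43 in STAT5 fl/fl and at most 0.0491 in STAT5 cKO libraries, and with 4T1 CM 3.16 to 4.34 and 1.23 to 2.17. In bulk RNA, fewer cells of a type and less RNA per cell cannot be told apart.

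As background, p53 is a tetrameric transcription factor that is kept scarce by the ubiquitin ligase Mdm2 and accumulates after DNA damage and other stress. It then switches on genes for cell cycle arrest, such as Cdkn1a, for apoptosis, such as Bax, and for its own restraint, such as Mdm2. Several of these genes also answer to other factors, and Cdkn1a in particular is controlled by cytokine and growth factor signals, while STAT5 is the transcription factor that GM-CSF activates through the kinase JAK2.

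The promoters are shown first because p53 and STAT5 bind different short sequences near the genes they control. RefSeq (GRCm38.p6) gave 9 promoter windows of 300 bases, from 250 before to 50 after a start site, for 8 of the 10 genes. Both starts of Cdkn1a are printed 5' to 3', then those of Phlda3 and Ccng1, the members with the clearest difference between the genotypes. Capitals mark exact matches on either strand to RRRCWWGYYY (R being A or G, W being A or T, Y being C or T). This is the p53 half-site, the decamer that makes up each arm of a p53 response element. Near matches stay in lower case.
Cdkn1a, upstream start, chr17:29090729-29091028, + strand: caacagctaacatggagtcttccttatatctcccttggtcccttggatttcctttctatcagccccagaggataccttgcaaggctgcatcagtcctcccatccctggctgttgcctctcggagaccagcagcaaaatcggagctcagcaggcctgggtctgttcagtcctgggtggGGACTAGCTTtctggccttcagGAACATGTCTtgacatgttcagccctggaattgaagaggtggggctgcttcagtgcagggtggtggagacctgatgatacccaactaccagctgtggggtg
Cdkn1a, downstream start, chr17:29093519-29093818, + strand: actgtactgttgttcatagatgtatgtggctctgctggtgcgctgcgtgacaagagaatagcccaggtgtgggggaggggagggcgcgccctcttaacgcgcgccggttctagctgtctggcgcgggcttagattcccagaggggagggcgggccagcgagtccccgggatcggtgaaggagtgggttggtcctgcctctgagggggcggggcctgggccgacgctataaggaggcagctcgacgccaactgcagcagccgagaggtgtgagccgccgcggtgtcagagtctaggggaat
Phlda3, chr1:135765835-135766134, + strand: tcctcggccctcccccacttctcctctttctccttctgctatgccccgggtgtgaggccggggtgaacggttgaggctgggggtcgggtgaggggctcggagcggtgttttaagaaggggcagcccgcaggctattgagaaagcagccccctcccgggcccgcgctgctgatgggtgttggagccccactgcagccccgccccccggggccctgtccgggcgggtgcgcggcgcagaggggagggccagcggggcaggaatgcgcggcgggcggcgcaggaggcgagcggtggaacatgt
Ccng1, chr11:40755237-40755536, - strand: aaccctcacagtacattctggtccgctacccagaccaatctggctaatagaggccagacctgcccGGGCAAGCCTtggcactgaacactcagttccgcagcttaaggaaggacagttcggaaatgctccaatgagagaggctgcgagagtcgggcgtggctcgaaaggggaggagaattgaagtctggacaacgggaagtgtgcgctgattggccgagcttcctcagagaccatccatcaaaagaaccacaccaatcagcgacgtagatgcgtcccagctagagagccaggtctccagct

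The upstream Cdkn1a window held 2 exact half-site matches, beginning 73 and 51 bases before the start site and close enough to form 1 paired match, which 0.0731% of all 32851 promoter windows held. The decamer directly after the match at 51 bases, tgacatgttc, departs from the half-site at its first base alone. It was not counted, so the paired match leaves out this adjoining near match. The downstream Cdkn1a window and the Phlda3 window held 0 matches. The Phlda3 window ends in gaacatgt, which fits the start of a half-site that the window edge cuts off, so it was not counted. Single matches lay in the windows of Ccng1 (185 bases before the start), Mdm2 (186 bases) and Bax (201 bases), and none lay in those of Aifm2, Eda2r and Plk2. A half-site was present in 8.36% of all windows, so 4 of 9 windows with one is a description of these genes only. The STAT motif TTCNNNGAA, which reads the same on both strands, was in 0 of the 9 windows and in 8.3% of all windows. These letters say nothing of binding, and sites outside the windows were not searched.

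Cdkn1a encodes p21, an inhibitor of cyclin-dependent kinases. It was the most abundant member per kilobase of transcript, at 126 normalized CPM per kb averaged over the 15 libraries, and had between 1747 and 16862 counts per library. With DMEM its level was 79.5 and 78.8 normalized CPM in STAT5 fl/fl mice 112 and 113, and 147, 152 and 159 in STAT5 cKO mice 114, 115 and 116. With rmGM-CSF it was 829 and 905 against 498, 466 and 466. With 4T1 CM it was 438 and 560 against 652, 588 and 678. The genotypes did not overlap under any treatment, but their order turned: STAT5 cKO macrophages were the higher with DMEM, the lower with rmGM-CSF, and again the higher with 4T1 CM.

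**Figure D1:**
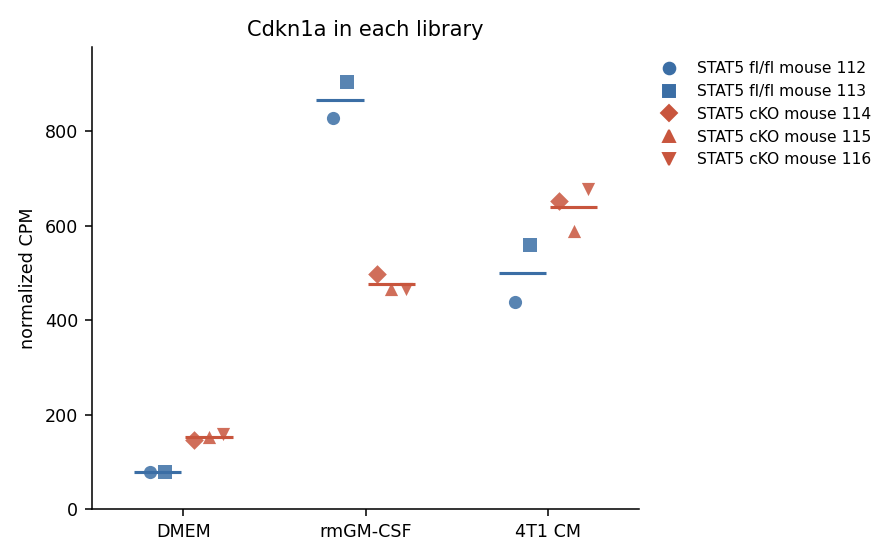
Cdkn1a level in each of the 15 libraries (normalized CPM, vertical axis) by treatment, with 1 symbol per mouse and a bar at each group mean. STAT5 cKO libraries lie above STAT5 fl/fl libraries with DMEM (147 to 159 against 78.8 to 79.5) and below them with rmGM-CSF (466 to 498 against 829 to 905).

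The group means of Cdkn1a, from lowest to highest, were, in normalized CPM, 79.1 ± 0.545 (SD, n = 2) for STAT5 fl/fl with DMEM, 153 ± 6.11 (n = 3) in STAT5 cKO with DMEM, 477 ± 18.7 (n = 3) in STAT5 cKO with rmGM-CSF, 499 ± 85.8 (n = 2) in STAT5 fl/fl with 4T1 CM, 640 ± 46.4 (n = 3) in STAT5 cKO with 4T1 CM and 867 ± 54 (n = 2) in STAT5 fl/fl with rmGM-CSF. STAT5 cKO with rmGM-CSF and STAT5 fl/fl with 4T1 CM overlapped, and no other neighbours in that order did. The difference between genotypes, as the log2 fold change of STAT5 cKO against STAT5 fl/fl, was 0.95 ± 0.09 (SE) in DMEM, -0.86 ± 0.09 after rmGM-CSF and 0.36 ± 0.09 after 4T1 CM. The first of these corresponds to a 1.93-fold higher and the next to a 1.82-fold lower level, and both were called, also under every alternative setting. The difference with 4T1 CM (1.28-fold) was not called. It was 0.19 without mouse 112 and 0.54 without mouse 113, and it was called without mouse 113, with DESeq2, without the low-count filter and with the mouse as a random effect.

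Both stimuli gave higher Cdkn1a in every mouse. With rmGM-CSF the level was 10.4 and 11.5 times that of the same mouse in DMEM in STAT5 fl/fl mice 112 and 113, and 3.39, 3.07 and 2.93 times in STAT5 cKO mice 114, 115 and 116. With 4T1 CM the same ratios were 5.51 and 7.11 against 4.44, 3.87 and 4.26. Neither set of ratios overlapped between the genotypes. Directly between the stimuli, rmGM-CSF gave 1.89 and 1.62 times the level of 4T1 CM in the STAT5 fl/fl mice and 0.764, 0.793 and 0.687 times in the STAT5 cKO mice, so the stimulus with the higher Cdkn1a was not the same in the genotypes.

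In the fit, the log2 response of Cdkn1a to rmGM-CSF was 3.45 ± 0.11 (SE) in STAT5 fl/fl and 1.64 ± 0.08 in STAT5 cKO macrophages, both called. The difference between these responses was -1.81 ± 0.13, a 3.51-fold smaller response without STAT5, and was called under every alternative. To 4T1 CM the log2 response was 2.66 ± 0.10 in STAT5 fl/fl and 2.07 ± 0.08 in STAT5 cKO macrophages, both called. Their difference of -0.59 ± 0.13 was not called, but with each mouse as a replicate block it was -0.58 and called, as it was with DESeq2 and without the low-count filter. The responses to the stimuli share their DMEM libraries, and part of each difference between genotypes lies in those libraries, where Cdkn1a was already 1.93-fold higher without STAT5.

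With rmGM-CSF, where Cdkn1a was lower without STAT5, the log2 fold change between genotypes of the 8 other tested members was above 0. In DMEM, where Cdkn1a was higher without STAT5, 7 of the 8 were above 0, and after 4T1 CM 8 of the 8 were. Of the 8 others that were tested, 3 were called higher in STAT5 cKO in DMEM, 6 after rmGM-CSF and 4 after 4T1 CM, and with rmGM-CSF Cdkn1a was the 1 member called lower. Of all 13005 genes, 0.938% were called higher and 1.55% lower without STAT5 in DMEM, 3.57% and 6.24% after rmGM-CSF, and 4.13% and 3.57% after 4T1 CM. The median log2 fold change of the 8 was 0.33 in DMEM, 0.52 after rmGM-CSF and 0.46 after 4T1 CM, beside 0.00, 0.00 and 0.01 over all tested genes. With DMEM and with 4T1 CM, 0 members were called lower in edgeR, 0 were lower at an unadjusted p under 0.05, and 0 with DESeq2. Since these values were known when the genes were chosen, nothing is read from these counts. For 4T1 CM the number of all members called ranged from 0, when the 5 libraries compared were fitted alone, to 7 with DESeq2 or without the low-count filter.

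**Figure D2:**
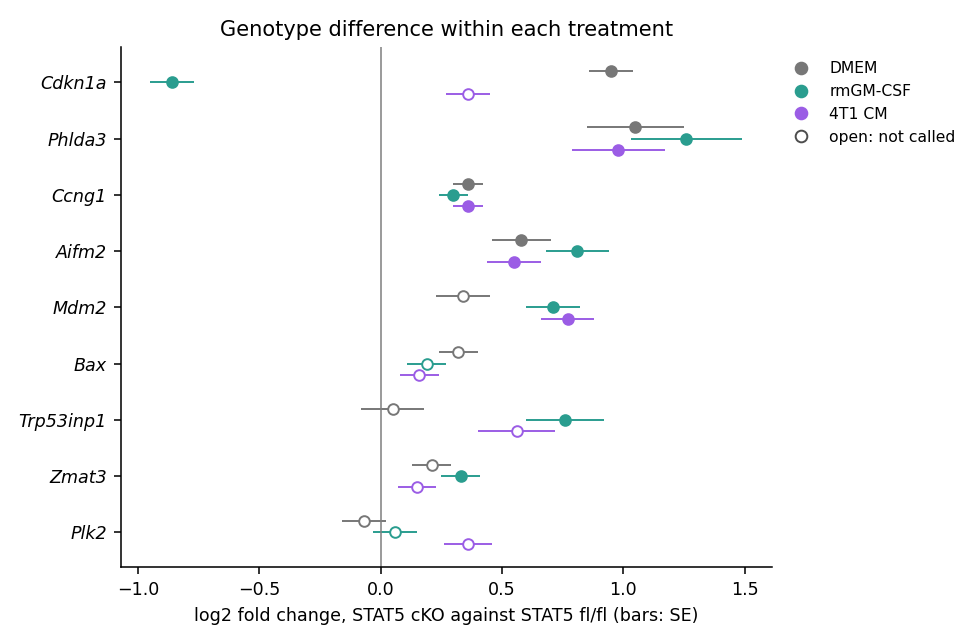
Log2 fold change of STAT5 cKO against STAT5 fl/fl (horizontal axis, bars show SE) for the 9 tested members under each treatment, filled where called. Cdkn1a with rmGM-CSF, at -0.86, is the 1 filled point left of 0. Phlda3, Ccng1 and Aifm2 are the members filled to the right of 0 under all 3 treatments.

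Phlda3 encodes a small pleckstrin-homology protein that competes with the kinase Akt for membrane lipids. It was a scarce transcript, with 49 to 275 counts per library. With DMEM it was at 4.64 and 3.92 normalized CPM in STAT5 fl/fl mice 112 and 113 and at 8.32, 8.23 and 9.89 in STAT5 cKO mice 114, 115 and 116. With rmGM-CSF it was at 4.11 and 2.63 against 9.32, 7.36 and 7.22, and with 4T1 CM at 4.58 and 6.61 against 11.5, 8.93 and 12.5. All 9 STAT5 cKO libraries lay above all 6 STAT5 fl/fl libraries, whatever the treatment. The log2 fold change between genotypes was 1.05 ± 0.20 (SE) in DMEM, 1.26 ± 0.23 after rmGM-CSF and 0.98 ± 0.19 after 4T1 CM, each called. Neither stimulus gave a called change in either genotype, where the log2 responses ran from -0.36 ± 0.27 to 0.38 ± 0.24. The DMEM call was lost without mouse 112, 113, 114 or 116 (1.17, 0.93, 1.09 and 0.95), the rmGM-CSF call without mouse 113 (0.96), and the 4T1 CM call without mouse 112 or 116 (0.73 and 0.87) and when only the libraries compared were fitted (0.97).

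Ccng1 encodes cyclin G1, an atypical cyclin that works with the phosphatase PP2A on Mdm2. It showed the same order of genotypes with far less spread, from 1706 to 3513 counts per library. With DMEM it was at 113 and 109 normalized CPM in the STAT5 fl/fl mice and at 146, 135 and 145 in the STAT5 cKO mice. Under rmGM-CSF it was at 106 and 107 against 128, 132 and 134, and with 4T1 CM at 106 and 101 against 132, 125 and 140. Again all 9 STAT5 cKO libraries lay above all 6 STAT5 fl/fl libraries. The log2 fold change between genotypes was 0.36 ± 0.06 (SE) in DMEM, 0.30 ± 0.06 after rmGM-CSF and 0.36 ± 0.06 after 4T1 CM, about a 1.23- to 1.28-fold difference, each called. The responses to the stimuli were small, from -0.11 ± 0.05 to -0.05 ± 0.07 on the log2 scale, and not called. The DMEM call was lost without mouse 112, 113, 114 or 116 (0.39, 0.33, 0.34 and 0.35), the rmGM-CSF call without mouse 112, 113 or 116 (0.29, 0.31 and 0.29), and the 4T1 CM call without mouse 113 (0.32) and when only the libraries compared were fitted (0.35).

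A complete separation of the genotypes over all treatments was uncommon. Of all tested genes, 0.969% had every STAT5 cKO library above every STAT5 fl/fl library and 0.938% had the reverse. Phlda3 and Ccng1 were the 2 members that separated in this way, and among the other p53 targets listed Apaf1 and Pmaip1 did so too. The level of fibroblast markers also went with the genotype: the 6 of them summed to 5.42 to 9.19 normalized CPM in STAT5 fl/fl and 9.26 to 15.9 in STAT5 cKO libraries. Of these markers, Pdgfra, Col3a1 and Dcn had at most 8, 12 and 12 counts in any library, and Pdgfrb was at 3.81 to 8.19 against 5.18 to 11.1 normalized CPM. The collagen genes Col1a1, at 0.161 to 0.568 against 0.425 to 3.35, and Col1a2, at 0.501 to 1.5 against 1.52 to 4.35, were low, and Col1a2 also separated the genotypes completely. The study itself reports more Col1a1 mRNA, and more type I collagen after 4T1 CM, from STAT5 cKO macrophages. Which cells made the collagen transcripts counted here was not tested. The median log2 fold change between genotypes of the 3 fibroblast markers tested was 1.83 in DMEM, 1.31 after rmGM-CSF and 1.67 after 4T1 CM. Under each treatment 0 of these 3 were called in edgeR, 3 were higher at an unadjusted p under 0.05, and DESeq2 called 1. The 6 markers of erythroid and mast cells were lower in STAT5 cKO libraries of each treatment (1.18 to 7.49 against 6.3 to 23.6 over all treatments), nearly all of it Kit. Their part in the levels of Phlda3 and Ccng1 was not tested.

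Aifm2 encodes a coenzyme Q reductase that protects membranes from lipid peroxidation. Its level depended on both genotype and treatment. With DMEM it was at 22.9 and 20.2 normalized CPM in the STAT5 fl/fl mice and at 29.6, 34.2 and 32.7 in the STAT5 cKO mice, and with rmGM-CSF at 22.7 and 18.9 against 32.6, 37.4 and 39.1. With 4T1 CM it was at 36.8 and 31.8 against 43.3, 55.4 and 52.3. The genotypes were thus apart under each treatment, and within each genotype the 4T1 CM libraries were the highest. The log2 fold change between genotypes was 0.58 ± 0.12 (SE) in DMEM, 0.81 ± 0.13 after rmGM-CSF and 0.55 ± 0.11 after 4T1 CM, each called. The response to 4T1 CM was 0.67 ± 0.13 in STAT5 fl/fl and 0.65 ± 0.10 in STAT5 cKO macrophages, both called, and that to rmGM-CSF was -0.05 ± 0.14 and 0.17 ± 0.10, not called. The genotype calls were lost without mouse 112, 113, 115 or 116 for DMEM (0.67, 0.49, 0.53 and 0.57) and 4T1 CM (0.66, 0.45, 0.48 and 0.53), without mouse 113 for rmGM-CSF (0.68), and for 4T1 CM also when only the libraries compared were fitted (0.55). The STAT5 fl/fl response to 4T1 CM was not called without mouse 112 (0.66).

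Mdm2, the ubiquitin ligase that marks p53 for destruction, had a higher level in STAT5 cKO macrophages under all 3 treatments. With DMEM it was at 216 and 189 normalized CPM in the STAT5 fl/fl mice and at 258, 257 and 256 in the STAT5 cKO mice. With rmGM-CSF it was at 274 and 232 against 394, 436 and 411, and with 4T1 CM at 293 and 207 against 444, 429 and 407. The genotypes did not overlap under any treatment, which is a description only, since the share of all genes that did so was not counted. The log2 fold change between genotypes was 0.34 ± 0.11 (SE) with DMEM, not called, and 0.71 ± 0.11 with rmGM-CSF and 0.77 ± 0.11 with 4T1 CM, both called. In STAT5 cKO macrophages the log2 response was 0.69 ± 0.10 to rmGM-CSF and 0.73 ± 0.10 to 4T1 CM, both called. In STAT5 fl/fl macrophages it was 0.32 ± 0.12 and 0.30 ± 0.12, not called, although with the mouse as a replicate block the values of 0.32 and 0.29 were called. The differences between these responses, 0.36 ± 0.15 and 0.43 ± 0.15, were not called, so a response that depends on genotype was not shown for Mdm2. The 4T1 CM genotype call was lost when only the libraries compared were fitted (0.76), and the STAT5 fl/fl response to 4T1 CM was called without mouse 113 (0.44) and the one to rmGM-CSF when the libraries compared were fitted alone (0.32).

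Bax, a pore-forming protein of the BCL2 family that opens the outer mitochondrial membrane, varied least of the members over the libraries. The lowest and highest libraries differed 1.36-fold, from 90.7 normalized CPM in STAT5 fl/fl mouse 113 with DMEM to 123 in STAT5 cKO mice 114 and 116 with rmGM-CSF. The log2 fold change between genotypes was 0.32 ± 0.08 (SE) in DMEM, 0.19 ± 0.08 after rmGM-CSF and 0.16 ± 0.08 after 4T1 CM, none called, with DMEM being called by DESeq2. The genotypes did not overlap with DMEM or rmGM-CSF, at 95.2 and 90.7 against 110, 116 and 121, and at 110 and 101 against 123, 112 and 123. They overlapped with 4T1 CM, at 96.3 and 98.3 against 117, 96.1 and 113.

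**Figure D3:**
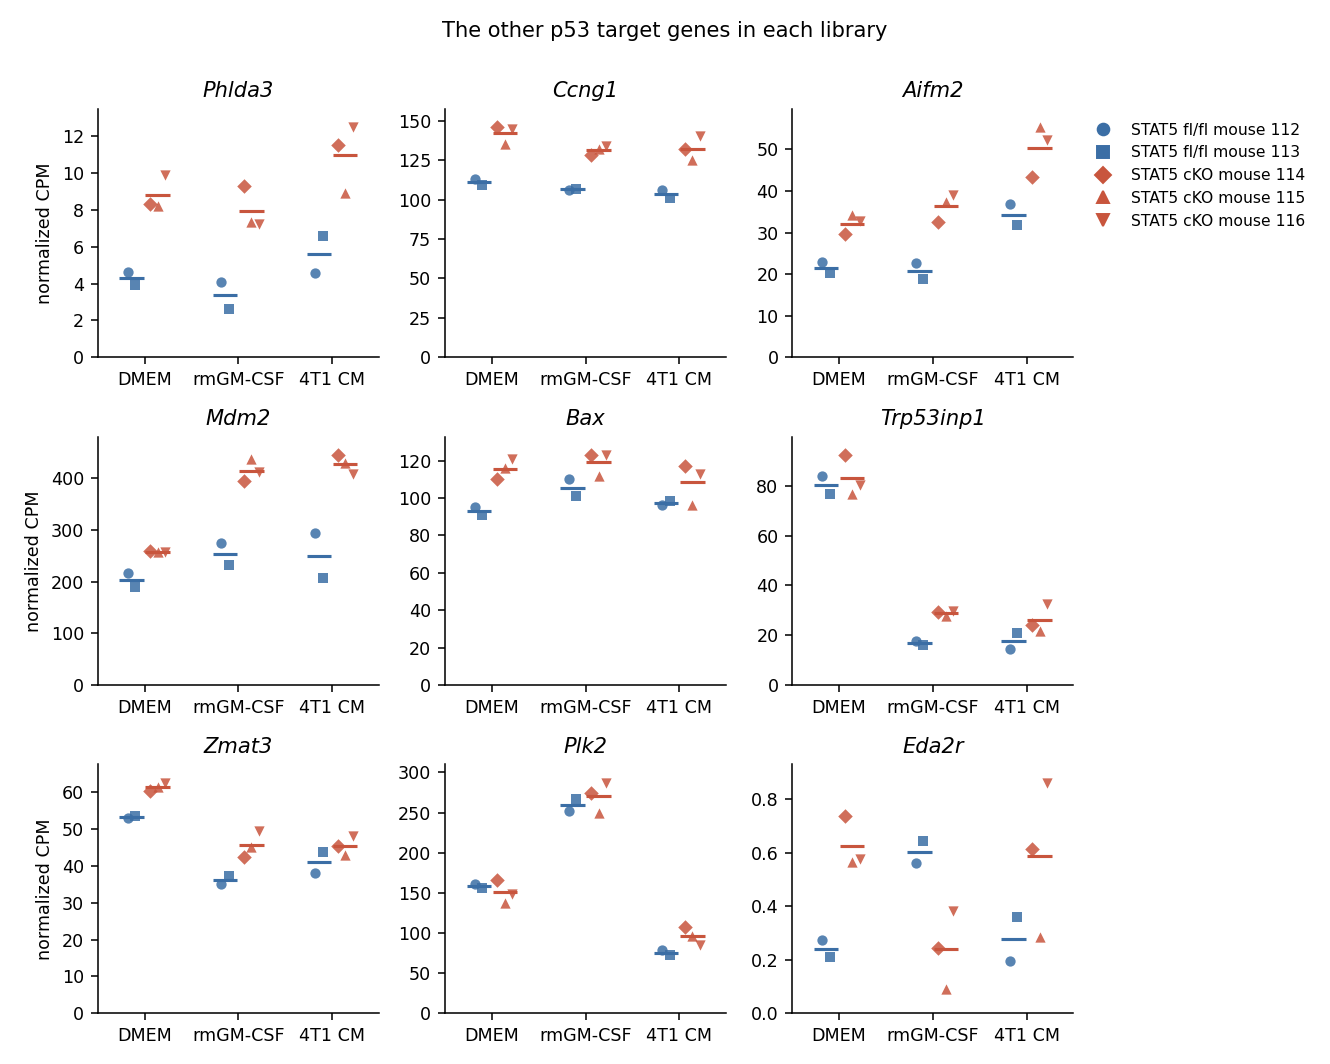
Level of each of the other 9 members in every library (normalized CPM, vertical axes from 0) by treatment, with 1 symbol per mouse and bars at group means. Phlda3 and Ccng1 are separated by genotype throughout (2.63 to 6.61 against 7.22 to 12.5, and 101 to 113 against 125 to 146), Trp53inp1 and Zmat3 are highest with DMEM, and Plk2 is highest with rmGM-CSF and lowest with 4T1 CM.

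Trp53inp1 encodes a stress protein of the nucleus and of autophagosomes that promotes transcription by p53. It went against Cdkn1a, being highest with DMEM. There it was at 83.7 and 76.8 normalized CPM in the STAT5 fl/fl mice and at 92.3, 76.6 and 80.1 in the STAT5 cKO mice, which overlapped. With rmGM-CSF it was at 17.9 and 16.2 against 29.4, 27.7 and 29.6, and with 4T1 CM at 14.6 and 20.9 against 24, 21.7 and 32.5. The log2 response to rmGM-CSF was -2.24 ± 0.17 (SE) in STAT5 fl/fl and -1.52 ± 0.13 in STAT5 cKO macrophages, a 4.71- and a 2.87-fold lower level. The response to 4T1 CM was -2.18 ± 0.16 and -1.67 ± 0.13, and all 4 responses were called under every alternative. The genotypes differed with rmGM-CSF by 0.76 ± 0.16, called, and with 4T1 CM by 0.56 ± 0.16, not called. The rmGM-CSF call was lost without mouse 112, 113 or 114 (0.83, 0.69 and 0.75), and the 4T1 CM value was called with DESeq2 and without the low-count filter. The difference between the responses to rmGM-CSF, 0.71 ± 0.21, was not called, but was when only the 10 libraries compared were fitted (0.71).

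Zmat3, which encodes a zinc finger protein that binds RNA, shared this direction at a smaller size. With DMEM it was at 53 and 53.6 normalized CPM in the STAT5 fl/fl mice and at 60.3, 61.5 and 62.6 in the STAT5 cKO mice. Under rmGM-CSF it was at 35.2 and 37.4 against 42.5, 45.3 and 49.5, and with 4T1 CM at 38.2 and 43.9 against 45.5, 43.1 and 48.1. Every stimulated library lay below every DMEM library of its genotype. The log2 responses were -0.55 ± 0.09 (SE) to rmGM-CSF and -0.38 ± 0.09 to 4T1 CM in STAT5 fl/fl macrophages, and -0.43 ± 0.07 and -0.43 ± 0.07 in STAT5 cKO macrophages, all called, with the 4T1 CM call in STAT5 fl/fl lost without mouse 112 (-0.29). Between genotypes the log2 fold change was 0.33 ± 0.08 with rmGM-CSF, called, and 0.21 ± 0.08 and 0.15 ± 0.08 with DMEM and 4T1 CM, not called. That 1 call was lost whichever mouse was left out (0.29, 0.38, 0.38, 0.34 and 0.27 without mice 112 to 116), without the low-count filter and with the mouse as a random effect (0.33 in both).

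Plk2 encodes a polo-like kinase that acts on centriole duplication and in stress responses. It separated the stimuli and hardly the genotypes. With DMEM it was at 161 and 156 normalized CPM in the STAT5 fl/fl mice and at 166, 137 and 149 in the STAT5 cKO mice. Under rmGM-CSF it was at 252 and 267 against 275, 249 and 287, and with 4T1 CM at 78.5 and 72.5 against 108, 96.7 and 85. In each of the 5 mice the order was thus rmGM-CSF, DMEM, 4T1 CM from high to low. The log2 response to rmGM-CSF was 0.71 ± 0.10 (SE) in STAT5 fl/fl and 0.84 ± 0.08 in STAT5 cKO macrophages, and that to 4T1 CM was -1.07 ± 0.11 and -0.64 ± 0.08, all called under every alternative. Between genotypes the log2 fold change was -0.07 ± 0.09 in DMEM, 0.06 ± 0.09 after rmGM-CSF and 0.36 ± 0.10 after 4T1 CM. None of these was called, although the one with 4T1 CM was with DESeq2 and without the low-count filter, and without mouse 116 (0.44).

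Eda2r, a receptor of the tumor necrosis factor family that binds ectodysplasin A2, lay below the filter. It had 2 to 19 counts per library, at most 0.861 normalized CPM, with more than 3 counts in 14 of 15 libraries. Its summed counts were 11 and 43 with DMEM, 21 and 13 with rmGM-CSF, and 11 and 38 with 4T1 CM, in 2 STAT5 fl/fl and 3 STAT5 cKO libraries each time. In normalized CPM the genotypes did not overlap with DMEM, at 0.273 and 0.211 against 0.736, 0.566 and 0.577. Nor did they with rmGM-CSF, at 0.561 and 0.644 against 0.245, 0.0892 and 0.383. With 4T1 CM they did, at 0.195 and 0.361 against 0.615, 0.284 and 0.861. At this depth no fold change is given, and these counts cover counting error only.

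Under the stimuli the members went in both directions. In STAT5 fl/fl macrophages rmGM-CSF gave 2 members called higher (Cdkn1a, Plk2) and 2 lower (Trp53inp1, Zmat3) of the 9 tested, beside 15.9% and 12.6% of all genes, and 4T1 CM gave 2 higher (Cdkn1a, Aifm2) and 3 lower (Trp53inp1, Zmat3, Plk2), beside 19.2% and 18.2%. In STAT5 cKO macrophages rmGM-CSF gave 3 higher (Cdkn1a, Mdm2, Plk2) and 2 lower (Trp53inp1, Zmat3), beside 13.3% and 10.2%, and 4T1 CM gave 3 higher (Cdkn1a, Aifm2, Mdm2) and 3 lower (Trp53inp1, Zmat3, Plk2), beside 19.3% and 18.4%. The median log2 response of the 9 was -0.05 and 0.07 in STAT5 fl/fl and 0.05 and -0.09 in STAT5 cKO macrophages, for rmGM-CSF and 4T1 CM, beside medians over all tested genes of -0.01 and 0.02 and of 0.00 and 0.01. These comparisons share the DMEM libraries of their genotype. Nothing particular to the members is read from these counts.

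**Figure D4:**
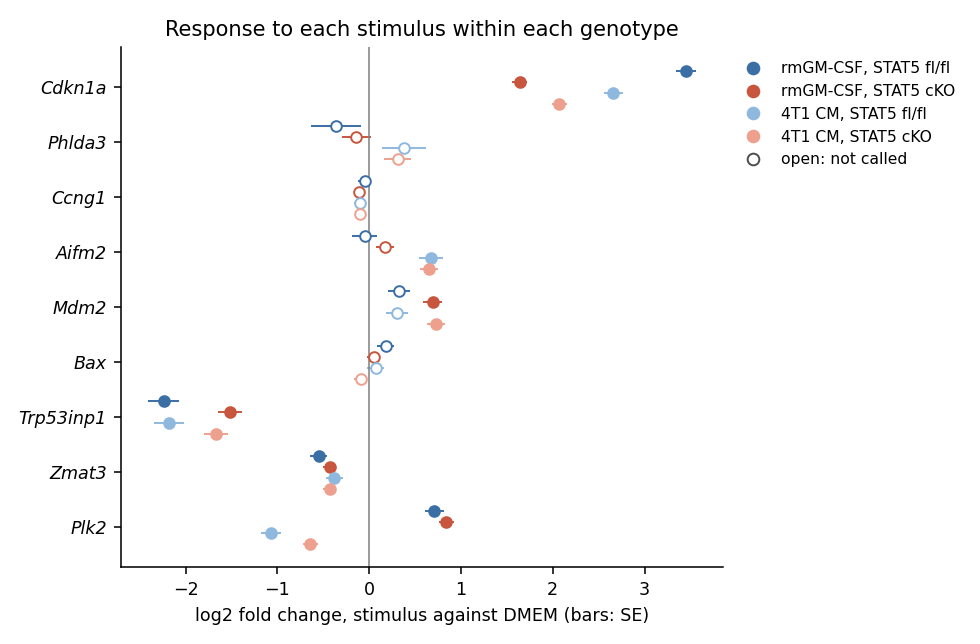
Log2 fold change of each stimulus against DMEM (horizontal axis, bars show SE) for the 9 tested members in each genotype, filled where called. Cdkn1a lies far to the right (1.64 to 3.45) and Trp53inp1 far to the left (-2.24 to -1.52), while Plk2 lies right of 0 with rmGM-CSF and left of 0 with 4T1 CM.

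A response that differed between the genotypes was called for 1 member, Cdkn1a with rmGM-CSF. Of all tested genes, 0.884% had a log2 response to rmGM-CSF called more positive in STAT5 cKO macrophages and 2.22% one called more negative. For the 4T1 CM response the shares were 0.73% and 0.538%, and 0 of 9 members were called in edgeR, where 4 had an unadjusted p under 0.05 (3 more positive and 1 more negative in STAT5 cKO) and DESeq2 called 1, Cdkn1a.

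A description of what each member varied with divides the spread between its 6 group means on the log2 scale into a part between genotypes, a part between treatments and a part where the treatment effect differs by genotype. For Ccng1 93.1% and for Phlda3 82.6% lay between genotypes, followed by Bax with 73.4%, Mdm2 with 59.1% and Aifm2 with 53.4%. For Plk2 97.6%, for Trp53inp1 91.6%, for Cdkn1a 90.1% and for Zmat3 75.8% lay between treatments. Cdkn1a had the smallest share between genotypes, 0.38%, since its differences with DMEM and rmGM-CSF were opposite, and the largest joint share, 9.54%. The spread being divided was not alike: the group means of Cdkn1a ranged over 3.45 and those of Bax over 0.36 on the log2 scale.

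**Figure D5:**
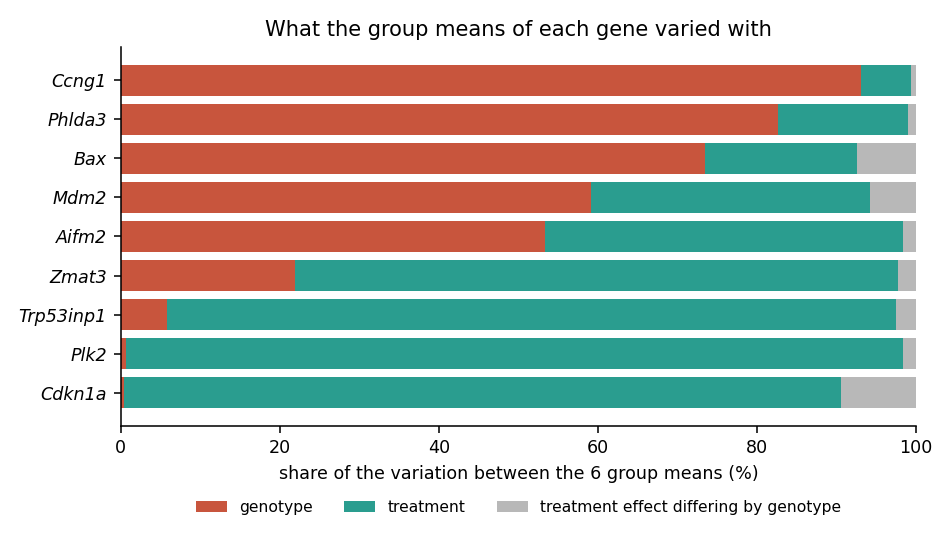
Share of the variation between the 6 group means (%, horizontal axis) that lay between genotypes, between treatments, or in treatment effects that differed by genotype, for the 9 tested members. Ccng1 and Phlda3 are mostly genotype (93.1% and 82.6%), whereas Plk2, Trp53inp1 and Cdkn1a are mostly treatment (97.6%, 91.6% and 90.1%).

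The likeness of other genes to Cdkn1a was taken as Pearson's r of the log2 CPM over the 15 libraries, which fall into 3 treatments and come 3 to a mouse, so it is a description only. Trp53inp1 (-0.91) and Zmat3 (-0.79) ran against Cdkn1a over all libraries, and the others ranged from -0.15 for Ccng1 to 0.56 for Mdm2. Since members differ between the genotypes, r was also taken within each genotype, over 6 libraries for STAT5 fl/fl and 9 for STAT5 cKO. It was then 0.58 and 0.97 for Mdm2, 0.20 and 0.75 for Aifm2, 0.78 and -0.16 for Bax, and -0.66 and -0.66 for Ccng1. Trp53inp1 (-0.96 and -0.96) and Zmat3 (-0.94 and -0.93) ran against Cdkn1a in both genotypes, while Phlda3 (-0.16 and 0.33) and Plk2 (0.11 and -0.12) were the closest to 0. The 5 most alike of all genes were Necap1, Bcl3, Junb, Flrt3 and Stx6, with r between 0.97 and 0.98. Bcl3, an atypical I-kappa-B protein, had group means of 16.4, 151 and 94.8 normalized CPM in STAT5 fl/fl and 21.2, 109 and 129 in STAT5 cKO macrophages with DMEM, rmGM-CSF and 4T1 CM. Junb, a subunit of AP-1, had 134, 533 and 375 against 169, 435 and 477. Like Cdkn1a, both had their highest mean with rmGM-CSF in STAT5 fl/fl and with 4T1 CM in STAT5 cKO macrophages. Such a likeness follows largely from taking genes by their correlation with Cdkn1a. Necap1 and Flrt3 shared this order, whereas Stx6 in STAT5 cKO macrophages was at 79.6 with rmGM-CSF and 79 with 4T1 CM.

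A wider list held 32 further p53 targets, 29 of them tested. Like the lists that follow, it was drawn up with earlier results of these counts known, so its adjusted p-values are a description. Without STAT5, 1 was called higher and 1 lower in DMEM, 2 and 1 after rmGM-CSF, and 2 and 0 after 4T1 CM. With 4T1 CM, edgeR gave 13 higher and 3 lower at an unadjusted p under 0.05, and DESeq2 called 2 higher and 0 lower. No share of all genes at that unadjusted p is given here. Over all tested genes 0.938% and 1.55%, 3.57% and 6.24%, and 4.13% and 3.57% were called higher and lower in these comparisons. The median log2 fold change of the 29 was 0.09, 0.07 and 0.17. Pmaip1, which encodes the BH3-only protein Noxa, was higher by 0.85 ± 0.11 (SE) with rmGM-CSF and 0.88 ± 0.11 with 4T1 CM (edgeR adjusted p = 2.53e-05 and 4.38e-05). Triap1, an inhibitor of apoptosis, was higher by 0.39 ± 0.07 with DMEM and 0.32 ± 0.08 with rmGM-CSF (edgeR adjusted p = 0.00409 and 0.00632), and Apaf1, the core of the apoptosome, by 0.29 ± 0.06 with 4T1 CM (edgeR adjusted p = 0.00334). Gadd45a, a growth arrest gene, was lower by 1.79-fold with DMEM, at 30.8 against 55.4 normalized CPM (edgeR adjusted p = 0.00502).

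Under the stimuli the wider list went in both directions. In STAT5 fl/fl macrophages 4 of the 29 rose and 8 fell with rmGM-CSF, beside 15.9% and 12.6% of all genes, and 4 rose and 5 fell with 4T1 CM, beside 19.2% and 18.2%. In STAT5 cKO macrophages 3 rose and 6 fell with rmGM-CSF, beside 13.3% and 10.2%, and 3 rose and 5 fell with 4T1 CM, beside 19.3% and 18.4%. Nothing particular to the list is read from these counts. Fas, the death receptor, rose with rmGM-CSF from 3.26 to 25.8 normalized CPM in STAT5 fl/fl and from 5.9 to 23.8 in STAT5 cKO macrophages, a log2 change of 2.99 ± 0.17 (SE) and 2.02 ± 0.13 (edgeR adjusted p = 2.9e-10 and 1.3e-09). Sesn1, an antioxidant sestrin, fell with 4T1 CM from 152 to 26.2 and from 133 to 21.5 (edgeR adjusted p = 2.15e-12 and 6.78e-14). Bbc3, which encodes the BH3-only protein Puma, fell with 4T1 CM from 28 to 9.39 and from 31 to 11.7 (edgeR adjusted p = 1.69e-08 and 2.5e-09), and Xpc, a sensor of DNA damage, fell with both stimuli in both genotypes. Sesn2, the sestrin induced by p53 and by nutrient stress, rose with rmGM-CSF from 27.8 to 61.6 in STAT5 fl/fl and from 31.2 to 41.2 in STAT5 cKO macrophages. The difference between its responses was -0.75 ± 0.16 (edgeR adjusted p = 0.00587), the 1 call of the list in that comparison, with 2 calls in the list under the replicate block, and it was not called without mouse 112, 113, 114 or 115, where it ranged within -0.86 to -0.70 (adjusted p of up to 0.0813 in edgeR).

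The p53 mRNA rose with rmGM-CSF, as Cdkn1a did, but fell with 4T1 CM and had no called difference between the genotypes. The amount and activity of p53 protein were not measured here. Trp53 was at 74.5, 104 and 53.5 normalized CPM in STAT5 fl/fl and 78.2, 112 and 56.7 in STAT5 cKO macrophages with DMEM, rmGM-CSF and 4T1 CM. It rose with rmGM-CSF by 0.48 ± 0.09 and 0.51 ± 0.07 on the log2 scale (edgeR adjusted p = 0.000221 and 1.82e-05) and fell with 4T1 CM by 0.48 ± 0.09 and 0.46 ± 0.07 (edgeR adjusted p = 0.000216 and 3.01e-05). Between genotypes its log2 fold change was 0.07 ± 0.08, 0.10 ± 0.08 and 0.08 ± 0.08 (edgeR adjusted p = 0.654, 0.429 and 0.549). Of the 13 tested genes of p53 and its regulators, 8 fell with 4T1 CM in each genotype and 0 rose (edgeR, with 0 rising at an unadjusted p under 0.05 and 0 with DESeq2). Of all genes, 18.2% fell and 19.2% rose with 4T1 CM in STAT5 fl/fl, and 18.4% and 19.3% in STAT5 cKO macrophages. Among them were the damage kinase Atm, from 38.4 to 13.8 and from 33.7 to 19.5 normalized CPM, and Chek2, from 13.7 to 4.12 and from 13.4 to 6.62. Ppm1d, the phosphatase Wip1 that resets p53, fell from 20.4 to 10.8 and from 18.8 to 10.3 (edgeR adjusted p = 1.38e-05 and 2.38e-06). Mdm4, the partner of Mdm2, was at 99.3, 113 and 107 against 82.9, 93.6 and 92.6, with no called difference.

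Of the 6 CDK inhibitors tested, Cdkn1a was the 1 with a called difference between the genotypes or between their responses. Of all genes, 0.938% were called higher and 1.55% lower without STAT5 in DMEM. The shares were 3.57% and 6.24% after rmGM-CSF and 4.13% and 3.57% after 4T1 CM. For the difference between responses, 0.884% were called more positive and 2.22% more negative with rmGM-CSF, and 0.73% and 0.538% with 4T1 CM. Since so few genes were called and Cdkn1a was chosen with its values known, nothing is read from this count. Cdkn1b, which encodes p27, fell with rmGM-CSF from 80.2 to 42.6 normalized CPM in STAT5 fl/fl and from 78.5 to 39 in STAT5 cKO macrophages (edgeR adjusted p = 2.94e-05 and 1.2e-06). Cdkn2d rose with 4T1 CM from 10.9 to 31.5 and from 11.6 to 40.9 (edgeR adjusted p = 1.48e-08 and 5.66e-11). Of the 12 listed genes for partners of p21 (CDKs, cyclins and Pcna), the D-type cyclins Ccnd1 and Ccnd2 rose with both stimuli in both genotypes. Ccnd1 went with rmGM-CSF from 32.9 to 63 and from 40.2 to 108, and Ccnd2 from 3.77 to 27.9 and from 7.25 to 21.9. Cdk6 had a smaller 4T1 CM response in STAT5 cKO macrophages, by -0.76 ± 0.13 (edgeR adjusted p = 0.00368).

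Among 17 proliferation genes 0 were called between the genotypes under any treatment in edgeR, with 1, 0 and 2 lower and 0, 0 and 0 higher at an unadjusted p under 0.05 for DMEM, rmGM-CSF and 4T1 CM, and 0 calls with DESeq2. With rmGM-CSF 1 of them, Mki67, rose and 5 fell in each genotype, beside 15.9% and 12.6% of all genes in STAT5 fl/fl and 13.3% and 10.2% in STAT5 cKO macrophages.

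Of 15 genes for other factors that act on Cdkn1a, 7 rose and 4 fell with rmGM-CSF in STAT5 fl/fl macrophages (15.9% and 12.6% of all genes) and 10 rose and 2 fell in STAT5 cKO macrophages (13.3% and 10.2%). With 4T1 CM 8 rose and 4 fell in STAT5 fl/fl (19.2% and 18.2%) and 10 rose and 3 fell in STAT5 cKO macrophages (19.3% and 18.4%). Myc, whose product represses Cdkn1a, rose from 8.25 to 65.2 normalized CPM and from 8.22 to 50.3 with rmGM-CSF, and to 112 and 115 with 4T1 CM. Klf6, an activator of Cdkn1a, was the gene of this list that was lower in STAT5 cKO with rmGM-CSF by the most, at 576 against 880, and its response differed by -0.44 ± 0.08 (edgeR adjusted p = 0.0029). Bcl6, a repressor, was at 268 against 16.5 with rmGM-CSF and at 208 against 30.4 with 4T1 CM, and the differences between its responses were 3.97 ± 0.10 and 2.73 ± 0.10 (edgeR adjusted p = 1.17e-13 and 2.3e-11). Smad3, which relays signals of TGF-beta, had more positive log2 responses to rmGM-CSF and 4T1 CM in STAT5 cKO macrophages, by 0.77 ± 0.13 and 0.79 ± 0.12 (edgeR adjusted p = 0.00106 and 0.00117). Whether any of these genes acts on the members in these cells was not tested.

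The members lie apart on the genome. By the coordinates of the count table (GRCm38), Cdkn1a spans chr17:29090976-29100727, Phlda3 chr1:135766119-135769136, Ccng1 chr11:40748552-40755311, Trp53inp1 chr4:11156431-11174379, Zmat3 chr3:32334792-32366014 and Plk2 chr13:110395046-110400844. Aifm2 (chr10:61715263-61739260) and Mdm2 (chr10:117688875-117710758) share a chromosome, Bax lies at chr7:45461697-45466898 and Eda2r at chrX:97333840-97377216. Annotated neighbours overlap 3 of the members. On the opposite strand these were AC167363.2 at Cdkn1a, with at most 5 counts in a library, and H2afy2 at Aifm2, with at most 21, and on the same strand Gm45808 at Bax, with at most 4. Fragments were counted on the strand of the gene.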

How the data were processed

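RNA was sequenced from macrophages of 5 mice (2 STAT5 fl/fl, 3 STAT5 cKO) under 3 treatments, and the labels place the 15 libraries in 6 groups, with the mouse number as replicate. The authors made the deposited counts with Trimmomatic 0.33 for trimming, HISAT2 2.1.0 for alignment to GRCm38, and by assigning fragments to genes with featureCounts 1.6.2 (strand-specific, both mates aligned, mapping quality of 10 or more). The deposited counts are not normalized, and further columns hold gene positions and summed exon length. Libraries of medium from HC11/R1 cells, named in the table's header, are not analysed here.

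Genes with over 1 CPM in at least 2 libraries were kept (13005). Relative log expression factors (0.945 to 1.08) were applied, and the 6 groups were fitted to all libraries with edgeR 4.0.16 (R 4.3.3) and the bias-adjusted quasi-likelihood test (biological coefficient of variation 0.0787). Adjusted p-values follow Benjamini and Hochberg across the 13005 genes, with a threshold of 0.01. Each SE of a log2 fold change was derived from the test, as the absolute log2 fold change over the square root of its F statistic. The filter, normalization, linear model and threshold follow the study's methods, which do not state the test. Normalized CPM are counts over the library total times its factor, scaled to CPM. The steps were tested on simulated data. Totals of 16016736 to 22883108 counts set the precision, with 3 counts as the floor, for counting error only.

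Alternatives were TMM factors, no low-count filter, DESeq2 1.42.0, a fit of only the libraries compared, leaving out each mouse, the mouse as a replicate block (responses) or as a random effect (genotype differences, limma 3.58.1), and, chosen after seeing the data, the legacy form of the test. By the labels, libraries with 1 mouse number come from 1 animal, and their deviations from the group means correlated at 0.0548 to 0.214 (11 of 15 pairs above 0.1).

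The members and all gene lists were chosen with earlier results of these data known. The text names all 10 members and, from the other lists, called genes among the 3 with the largest log2 fold change per direction and comparison, with Trp53, Mdm4, Ppm1d, Stat5a and Stat5b, the 5 genes most correlated with Cdkn1a, and genes overlapping a member. Others were named after their values were seen.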

Additional observations from a re-analysis of the deposited data

Results flagged for a closer look

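The response of Cdkn1a to rmGM-CSF differed between the genotypes by -1.81 on the log2 scale, with ratios to DMEM of 10.4 and 11.5 in the STAT5 fl/fl mice and 2.93 to 3.39 in the STAT5 cKO mice. Cdkn1a was chosen with these values known, so this difference is a description and supports nothing. For Sesn2, of the wider list of p53 targets, a test of the difference itself (the interaction of genotype and treatment in edgeR) gave -0.75 (edgeR adjusted p = 0.00587, and 0.000507 to 0.0813 over 11 alternatives).

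The same test singled out further genes, from lists that were also drawn up with earlier results known. Among factors that act on Cdkn1a, the rmGM-CSF responses of Klf6 (-0.44), Smad3 (0.77) and Bcl6 (3.97) differed, as did the 4T1 CM responses of Smad3 (0.79) and Bcl6 (2.73). Among the kinases that p21 binds, the 4T1 CM response of Cdk6 differed by -0.76. Of 11 alternatives each, Bcl6 was called in 11 for both stimuli, Smad3 in 9 for rmGM-CSF and 8 for 4T1 CM, Klf6 in 7 and Cdk6 in 6, the calls being lost when single mice were left out and, for Cdk6, also when only the libraries compared were fitted.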

How the results depend on the processing

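Of 81 log2 fold changes of the members, 36 were called, 22 of them under every alternative run, and 0 changed sign once called. Without mouse 112 or 113, which leaves 1 STAT5 fl/fl library per treatment, assumed to vary like the other groups, 10 calls were lost each time. TMM factors and the legacy form of the test changed 0 member calls.

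Leaving out each mouse, the number of members called between genotypes was 1 to 3 with DMEM (4 with all mice), 2 to 6 with rmGM-CSF (7) and 2 to 4 with 4T1 CM (4), and for the STAT5 fl/fl response to 4T1 CM 3 to 6 (5). For the further targets it was 0 to 1 with DMEM (2), 1 to 3 with rmGM-CSF (3) and 1 to 3 with 4T1 CM (2), 6 to 12 for rmGM-CSF (12) and 3 to 9 for 4T1 CM (9) in STAT5 fl/fl, and 0 to 1 for the difference between rmGM-CSF responses (1). The Cdkn1a log2 fold change ran from 0.19 to 0.54 between genotypes with 4T1 CM, from 2.46 to 2.83 for the STAT5 fl/fl response to 4T1 CM and from -0.76 to -0.40 for the difference between 4T1 CM responses.

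With only the libraries compared, 0 members were called between genotypes with 4T1 CM, 2 for the difference between rmGM-CSF responses, and 1, 1 and 3 further targets for DMEM, 4T1 CM and that difference. Without the low-count filter 7 members were called with 4T1 CM and 1 for the difference between 4T1 CM responses, and 3 further targets for that between rmGM-CSF responses. DESeq2 gave 7, 1 and 3 there, and 5 further targets with rmGM-CSF. With mice paired as a replicate block, 1 member was called for the difference between 4T1 CM responses and 2 further targets for that between rmGM-CSF responses, and the block gained 3 member calls and lost 0. The causes were not tested. A block could not be fitted between genotypes, whose mice differ.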
